A study of Mus musculus with 8 samples.

Results

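The 10 genes described here encode tubulins and microtubule-associated proteins of neurons: Tuba1a, Tubb2b, Tubb2a, Tubb3, Dcx, Dclk1, Map1b, Map2, Mapt and Stmn2. They were chosen by symbol from the 12537 genes of the expression tables, and all 10 were present in every table and passed the filter on low values. Microtubules are hollow polymers of paired alpha and beta tubulin, and migrating neurons, axons and dendrites are built on them. Vertebrates carry several tubulin genes, called isotypes, and new neurons of the cerebral cortex rely on a few of them. Structural microtubule-associated proteins bind the polymer and stabilise or bundle it, whereas stathmins bind free tubulin and favour disassembly.

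Expression was measured by RNA sequencing in C57BL/6 mice in which Hdac3, a class I histone deacetylase of the NCoR and SMRT corepressor complexes, was conditionally deleted (KO) or intact (WT). Neurospheres, which are suspended clusters grown in medium for neural stem cells, came from the cerebrum of KO and WT embryos at stage E16.5 and were collected on day 4 of culture. Dorsal cerebral cortex was taken from KO and WT pups at postnatal day 0. Each of the 4 groups held 2 libraries, from 2 brains, named by the numbers in the labels: KO 7, KO 8, WT 5 and WT 6 for neurospheres, and KO 1, KO 2, WT 1 and WT 2 for cortex. Emx1 appears in the titles of the KO cortex libraries and Emx1Cre in the authors' deposited table for that tissue. This Cre acts in dorsal forebrain progenitors and the cells they give rise to, so interneurons of ventral origin, microglia and vessels can retain Hdac3. For neurospheres no driver is stated in the labels.

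Values are FPKM, fragments scaled to transcript length and to the mapped fragments of a library, which allow levels of different genes to be set side by side within a table. The 2 tissues were normalized separately, so their levels were not tested against each other. In the authors' deposited table the mean normalized count of the 10 ran from 7749 (Tubb2a) to 125793 (Tuba1a) in neurospheres and from 22133 (Dclk1) to 247847 (Tuba1a) in cortex. Differences were tested with limma-trend on log2(FPKM + 1) over all genes of a tissue, with Benjamini-Hochberg (BH) adjustment and a threshold of 0.05. A log2 fold change is KO over WT on that scale. The deposited intervals imply that the median row rested on 346 to 440 fragments in neurosphere libraries and on 580 to 709 in those of cortex. Across genes, which are not independent, the 2 replicates of a group correlated at r = 0.967 for KO and 0.976 for WT neurospheres, and at 0.995 for KO and 0.996 for WT cortex. Hdac3 itself averaged 19.3 ± 1.73 FPKM in KO and 31.5 ± 4.06 FPKM in WT neurospheres (SD, n = 2 each), and 26.8 and 27.1 FPKM in KO and 48.1 and 46.1 FPKM in WT cortex. Its difference passed the test in cortex (log2 fold change −0.78, limma adjusted p = 0.000319) and missed it in neurospheres (−0.68, limma adjusted p = 0.104). The authors' deposited table gave values closer to 0 for Hdac3, of −0.52 in cortex (adjusted p = 3.83e-07) and −0.29 in neurospheres (adjusted p = 0.437), and a value for the whole gene cannot show which exons were lost.

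In KO cortex 3 of the 10 genes rose, Tubb2a, Dcx and Map1b, and none fell. Among all 11988 genes tested in cortex, 4.8% were called higher and 17.7% lower in KO. Both KO libraries lay above both WT libraries for 8 of the 10 genes, against 15.5% of all genes, and Stmn2 was the 1 gene with both KO values below, against 50.2% of all genes. In KO neurospheres 0 of the 10 passed the limma test, where 0.219% of 11408 genes were called higher and 0.929% lower. At an unadjusted p under 0.05 limma listed 2 of the 10 there, beside 2288 of all 11408 genes. They were Dcx and Map1b, both higher in KO, and the authors' deposited table called the same 2. Both KO neurosphere libraries lay above both WT libraries for 5 of the 10 genes, against 14.6% of all genes. They lay below for 0, against 38.3% of all genes. The FPKM tables were restricted on the WT libraries, so genes low in WT and higher in KO are missing. That can tilt the shares and medians of all genes, here and below, toward lower in KO. At an adjusted p of 0.05 the authors' deposited tables called 917 genes higher and 800 lower in KO cortex. In KO neurospheres they called 438 higher and 290 lower.

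The median log2 fold change of the 10 genes was 0.17 in neurospheres and 0.19 in cortex, beside −0.15 and −0.10 for all genes tested. When libraries were rescaled by the median of gene ratios, the median of all genes became −0.01 in neurospheres and 0.00 in cortex, and that of the 10 genes 0.33 and 0.31. With that scaling 5 of the 10 were called higher in KO cortex, against 9.43% of all genes, with Tubb2b and Dclk1 added, and 0 in KO neurospheres, against 0.456%. Over all genes the rescaling moved the cortex calls to 1131 higher and 934 lower, beside 575 and 2124 as deposited, and the neurosphere calls to 52 and 78, beside 25 and 106, so that 7.79% of all genes were then lower in cortex and 0.684% in neurospheres. In bulk tissue, more cells of a type and more RNA per cell cannot be told apart.

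Levels of cell type markers moved with genotype as well. In neurospheres, where 8 of 8 neuron markers were measured, their summed FPKM was 684 to 793 in KO and 626 to 766 in WT, and 0 of 8 passed the test. Both KO values lay above both WT values for 4 of the 8 and below for 1, against 14.6% and 38.3% of all genes. The median log2 fold change of the 8 was 0.31, and 0.47 after rescaling. GABAergic interneuron markers rose for 6 of 7, with sums of 296 to 307 FPKM in KO and 132 to 151 FPKM in WT. Markers of dividing cells fell for 2 of 5 (0 after rescaling), with sums of 44.9 to 49.0 FPKM in KO and 89.4 to 90.8 FPKM in WT. Of 8 radial glia markers 1 fell, with sums of 813 to 987 FPKM in KO and 1219 to 1568 FPKM in WT. Both KO values lay below both WT values for all 5 markers of dividing cells and all 8 of radial glia. Of 5 astrocyte markers 0 passed, with both KO values below both WT values for 4 and sums of 74.5 to 105 FPKM in KO and 105 to 127 FPKM in WT. Mbp, a myelin gene, rose (log2 fold change 1.19, limma adjusted p = 0.0471), 1 of 6 oligodendrocyte lineage markers. The sums of the 6 were 215 to 219 FPKM in KO and 221 to 251 FPKM in WT. Both KO values lay above both WT values for 3 of them and below for 3, Pdgfra, Olig2 and Sox10. Dcn, the 1 measured marker of meningeal fibroblasts, rose, with 10.5 and 9.46 FPKM in KO and 2.98 and 1.71 FPKM in WT (1.74, limma adjusted p = 0.0358). Hba-a1, a hemoglobin gene and the 1 measured erythroid marker, rose, with 22.1 and 25.5 FPKM in KO and 9.87 and 5.47 FPKM in WT (1.56, limma adjusted p = 0.0471). Neither measured marker of intermediate progenitors passed, and no marker of microglia (7 genes) or of endothelium and pericytes (6 genes) was listed in the neurosphere FPKM table.

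In cortex 4 of 8 neuron markers rose and 2 fell, with sums of 1608 to 1664 FPKM in KO and 1317 to 1466 FPKM in WT. Of 8 radial glia markers 3 rose, with sums of 1383 to 1471 FPKM in KO and 1054 to 1155 FPKM in WT. Among 5 astrocyte markers 3 rose and 1 fell (3 and 0 after rescaling), with sums of 183 to 211 FPKM in KO and 111 to 114 FPKM in WT. The widest gaps within these 3 lists were those of Gap43 (1010 FPKM in KO and 815 in WT), Fabp7 (1211 and 924) and Gfap (92.8 and 20.9). The sums therefore mainly follow these genes. Both KO values lay above both WT values for 4 neuron, 3 radial glia and 3 astrocyte markers, and below for 2, 0 and 2. Over all genes the shares were 15.5% above and 50.2% below. Of the other lists, 3 of 6 oligodendrocyte lineage, 4 of 7 microglia and 4 of 5 meningeal fibroblast markers rose, and 0 of 7 interneuron markers passed (89.4 to 91.0 FPKM in KO and 86.3 to 96.1 FPKM in WT). No marker of endothelium and pericytes (6 genes), dividing cells (5), erythroid cells (3) or intermediate progenitors (3) passed there, and after rescaling 2 of the first and 1 of the second were higher in KO. No marker present in the tables was at 0 in a library of either tissue. The part of these markers' cell types in the values of the 10 genes was not tested.

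**Figure D1:**
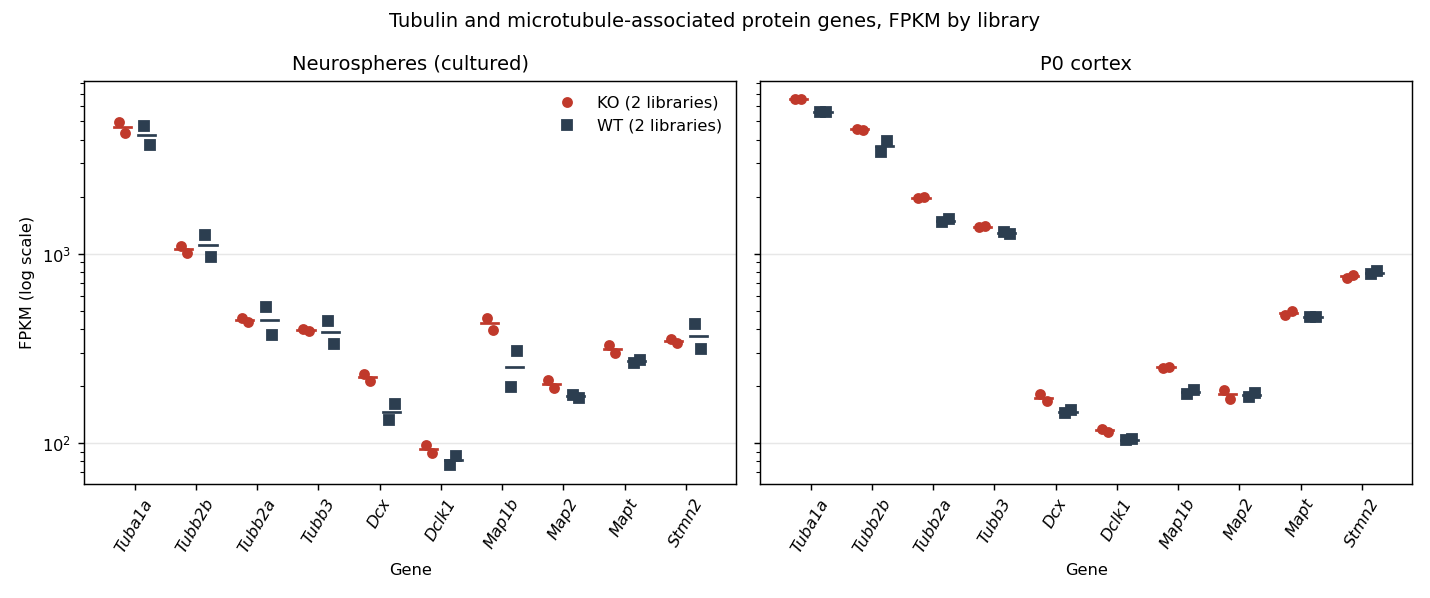
FPKM of the 10 genes on a log axis, in neurospheres (left) and postnatal day 0 cortex (right), with 1 point per library, KO circles left of WT squares, and a short line at each group mean (n = 2). The KO points of Dcx and Map1b lie above the WT points in both tissues, and those of Tubb2a in cortex but not in neurospheres, where the 2 groups overlap.

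Among the tubulins, Tuba1a, the main alpha tubulin of newborn neurons, was the most highly expressed gene of either table in every group. It measured 4933 and 4352 FPKM in KO and 4690.2 and 3762 FPKM in WT neurospheres, where the groups overlapped (log2 fold change 0.14, SE 0.50, limma adjusted p = 0.899). In cortex it measured 6521 and 6522 FPKM in KO, against 5568 and 5579 FPKM in WT. The cortex libraries of each genotype were nearly level and the groups apart, but the log2 fold change of 0.23 (SE 0.09) missed the threshold (limma adjusted p = 0.0893). The authors' deposited table, in which Tuba1a had the highest mean normalized count of the 10, called it higher in KO cortex, by 0.34 on the log2 scale (adjusted p = 7.84e-06).

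Tubb2b and Tubb2a are neighbouring beta tubulin genes on mouse chromosome 13, and Tubb2b is known for its part in neuronal migration. Tubb2b had 1103 and 1007 FPKM in KO and 1258 and 963.5 FPKM in WT neurospheres, with overlapping groups (log2 fold change −0.06, limma adjusted p = 0.926, and 0.10 after rescaling). In cortex it had 4549.9 and 4493 FPKM in KO, against 3450.3 and 3954 FPKM in WT. The cortex groups did not overlap, WT 1 was the lowest library, and the log2 fold change of 0.29 (SE 0.09) narrowly missed the threshold (limma adjusted p = 0.0551). It passed after rescaling, at 0.41 (limma adjusted p = 0.0446), and with a filter at a mean of 5 FPKM, at 0.29 (limma adjusted p = 0.0401). Each WT library moved it, to 0.39 without WT 2, where it passed (limma adjusted p = 0.0207), and to 0.19 without WT 1 (limma adjusted p = 0.149).

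Tubb2a measured 455.7 and 434.9 FPKM in KO and 523.9 and 372.1 FPKM in WT neurospheres, with both KO libraries between the 2 WT libraries (log2 fold change 0.01, SE 0.24, limma adjusted p = 0.985). In cortex it measured 1972 and 1981 FPKM in KO, against 1467 and 1517 FPKM in WT. It thus rose in KO cortex by a ratio of 1.32, a log2 fold change of 0.41 (SE 0.07, limma adjusted p = 0.00729). Without KO 1 or without KO 2 the size was much the same (0.41 and 0.40) but missed the threshold (limma adjusted p = 0.082 and 0.102).

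Tubb3, the beta tubulin used most often to mark neurons, had 401.5 and 391.4 FPKM in KO neurospheres, inside the range of the 440.9 and 334.5 FPKM in WT. In cortex it had 1381 and 1398 FPKM in KO and 1308 and 1270.1 FPKM in WT. The KO cortex libraries were both higher, but the log2 fold change of 0.11 (SE 0.07) did not pass (limma adjusted p = 0.294).

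The ends of the coding sequences show how alike the beta tubulins are, which bears on how far reads can be assigned. Below are the last 72 coding bases of each gene, stop codon included, from the GENCODE M21 transcripts on GRCm38, with Tubb2b as the base of comparison. Capitals mark bases of Tubb2a or Tubb3 that differ from Tubb2b or have no partner in it.
Tubb2b: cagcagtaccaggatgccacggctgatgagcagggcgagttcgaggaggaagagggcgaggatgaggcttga
Tubb2a: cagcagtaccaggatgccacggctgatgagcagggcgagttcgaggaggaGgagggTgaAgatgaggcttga
Tubb3: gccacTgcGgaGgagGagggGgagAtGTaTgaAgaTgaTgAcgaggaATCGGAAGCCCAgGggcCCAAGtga
Tubb2a differed from Tubb2b at 3 of these bases and at 47 of 1338 over the coding sequence (96.5% identical), whereas Tubb3 was 84.5% identical to Tubb2b. Tuba1a was 98.3% identical to Tuba1b and 97.6% to Tuba1c. Of the 50-base windows of the longest coding transcript, 72.9% in Tuba1a, 49.6% in Tubb2a and 39.3% in Tubb2b also occurred in another gene, and 712 windows were common to Tubb2a and Tubb2b. The split of reads between each of these 3 genes and its copies is therefore uncertain. In Dcx the share was 0.255%, and in the other 6 genes it was 0.

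Within the beta tubulin family the share of Tubb2a stood at 21.4% in each KO cortex library, against 19.1% and 18.7% in the WT libraries. The share of Tubb3 was lower in both KO cortex libraries than in both WT libraries, with means of 15.0% ± 0.129 in KO and 16.4% ± 0.953 in WT (SD, n = 2 each). Tubb2b held the largest share, 49.3% and 48.6% in KO and 45.0% and 48.9% in WT cortex, and its groups overlapped. Shares within a library do not depend on library scaling, but an exact permutation test of 2 libraries against 2 cannot reach the threshold, so no test was made.

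In neurospheres the shares of Tubb3 and Tubb2a were each higher in both KO libraries than in both WT libraries. Tubb2b held 43.3% and 42.4% in KO and 42.1% and 42.4% in WT neurospheres, with KO 8 and WT 6 level at this precision. Tubb3 made up 16.1% ± 0.517 of beta tubulin FPKM in KO and 14.7% ± 0.0202 in WT (SD, n = 2 each). Tubb5, a broadly expressed isotype, made up 15.7% ± 0.459 in KO and 17.5% ± 0.073 in WT. Tubb4b, also broadly expressed, held 1.81% and 1.97% in KO and 3.32% and 3.33% in WT neurospheres, and 1.36% and 1.39% in KO and 2.17% and 2.09% in WT cortex. Tubb4b and Tubb5 thus held smaller shares in both KO libraries of both tissues. Tubb4a went opposite ways, with a mean share of 4.97% in KO and 4.09% in WT neurospheres and 1.31% in KO and 1.83% in WT cortex. Tubb6 held 0.449% on average in KO and 1.15% in WT neurospheres.

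Among alpha tubulins, Tuba1a held 77.8% and 78.1% of the summed FPKM in KO cortex, against 79.2% in each WT library, and between 81.9% and 83.6% in the 4 neurosphere libraries. Tuba1b held 13.1% and 13.3% in KO and 12.3% and 12.0% in WT cortex, and Tuba1c held 8.45% on average in KO and 8.36% in WT. The summed FPKM of the alpha tubulins was 8387 and 8345 in KO and 7034 and 7045 in WT cortex, and that of the beta tubulins 9234 and 9239 in KO and 7672 and 8092 in WT cortex. In neurospheres both sums overlapped between genotypes, with 6001 and 5316 in KO and 5709 and 4499 in WT for alpha tubulins.

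**Figure D2:**
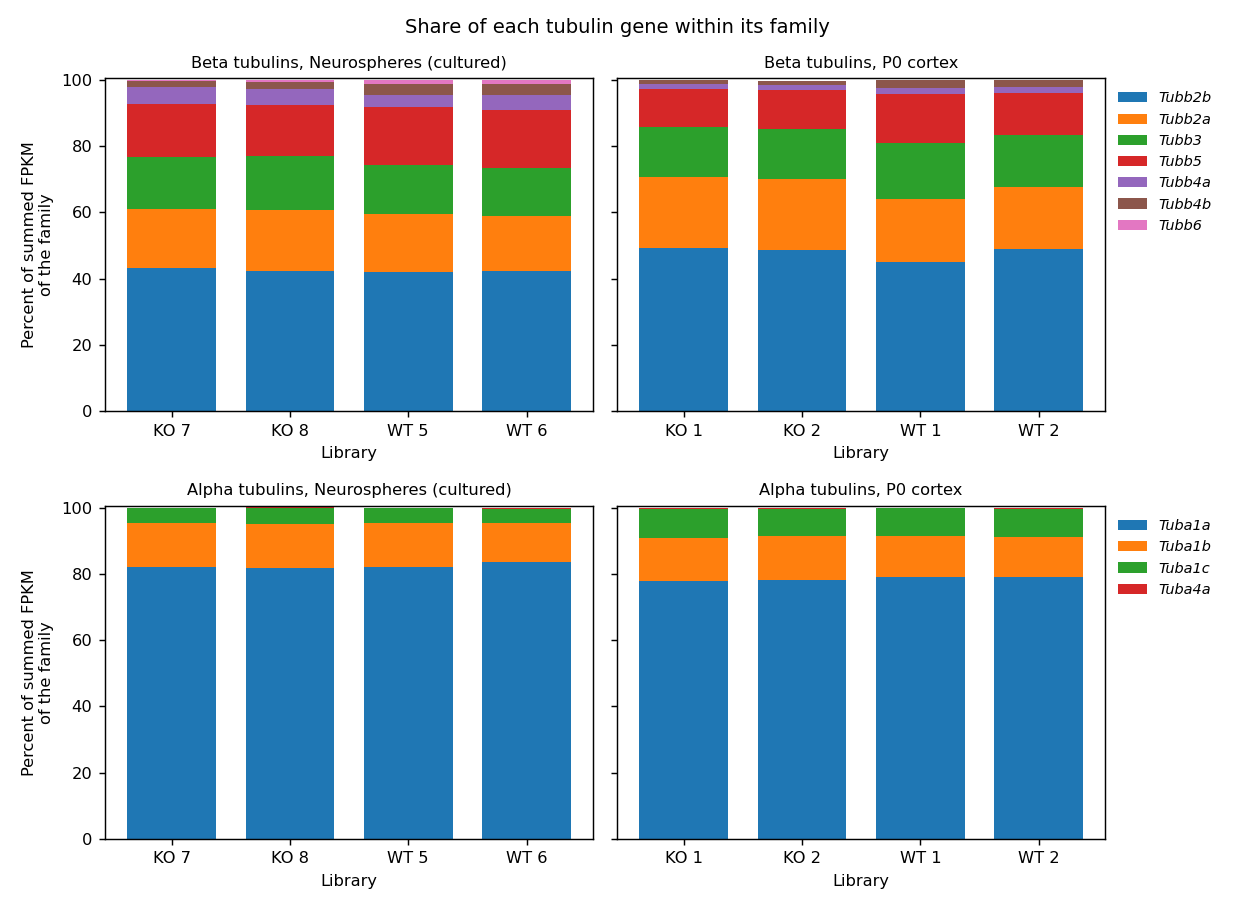
Stacked bars giving each gene's percent of the summed FPKM of the beta (top) or alpha (bottom) tubulins, 1 bar per library, KO left of WT, neurospheres left and cortex right. Tubb2b takes the largest beta share and Tuba1a the largest alpha share in all 8 libraries, and the Tubb2a band is wider in KO than in WT cortex (21.4% against 19.1% and 18.7%).

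Dcx encodes doublecortin, which binds microtubules in migrating immature neurons. It measured 232.9 and 213.3 FPKM in KO neurospheres, against 132.1 and 161.3 FPKM in WT, a ratio of 1.52 with no overlap. The log2 fold change of 0.61 (SE 0.18) missed the threshold over all genes (limma adjusted p = 0.146), and was 0.46 to 0.75 leaving out 1 library. The authors' deposited table gave 0.69 and called it (adjusted p = 0.000176).

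In cortex Dcx measured 181.6 and 166.4 FPKM in KO, against 144.2 and 148.8 FPKM in WT, again with no overlap. It rose by a ratio of 1.19, a log2 fold change of 0.24 (SE 0.07, limma adjusted p = 0.0329). The call was lost without KO 1 (0.18, limma adjusted p = 0.231), without KO 2 (0.31, limma adjusted p = 0.0899) and without WT 1 (0.22, limma adjusted p = 0.076).

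Dclk1, a kinase with a doublecortin-like domain, had 97.2 and 88.6 FPKM in KO and 76.4 and 85.8 FPKM in WT neurospheres, the lowest level of the 10 genes in each group. In cortex it had 118.1 and 115.2 FPKM in KO and 103.5 and 105.4 FPKM in WT. Its KO libraries were higher in both tissues without passing the test (log2 fold change 0.19, limma adjusted p = 0.508 in neurospheres, and 0.16, limma adjusted p = 0.0905 in cortex). After rescaling the cortex value passed, at 0.27 (limma adjusted p = 0.0215). The WT 2 cortex value carries a failed Cufflinks status, 1 of 2 such values in that table, so it is doubtful. The ratio of Dcx to Dclk1 within a library was 2.40 and 2.41 in KO and 1.73 and 1.88 in WT neurospheres, and 1.54 and 1.44 in KO and 1.39 and 1.41 in WT cortex.

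Map1b encodes a large structural protein abundant in growing axons. It had 459.3 and 397.3 FPKM in KO neurospheres, against 197.5 and 307.1 FPKM in WT, a ratio of 1.70. The WT libraries were far apart, and the log2 fold change of 0.79 (SE 0.25) missed the threshold (limma adjusted p = 0.168). It was 0.47 without WT 5 (limma adjusted p = 0.362) and 1.11 without WT 6 (limma adjusted p = 0.0903). The authors' deposited table, where the gene stands under its older symbol Mtap1b, also gave 0.79 and called it (adjusted p = 0.000405).

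In cortex Map1b had 250.5 and 253.7 FPKM in KO, against 182.3 and 191.6 FPKM in WT. It rose by a ratio of 1.35, a log2 fold change of 0.43 (SE 0.06, limma adjusted p = 0.00305), and was called without each of the 4 cortex libraries in turn (log2 fold change 0.39 to 0.47). No 50-base window of its transcript occurred in another gene.

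The other structural proteins showed smaller differences. Map2, which is concentrated in dendrites, had 215.7 and 196.5 FPKM in KO and 179.5 and 174.0 FPKM in WT neurospheres, and its cortex groups overlapped, with 191.3 and 172.0 FPKM in KO and 175.0 and 183.5 FPKM in WT. Neither difference passed (log2 fold change 0.22, limma adjusted p = 0.493, and 0.02, limma adjusted p = 0.878). Mapt encodes tau, a protein of axonal microtubules. Mapt had 330.1 and 299.4 FPKM in KO and 264.5 and 275.6 FPKM in WT neurospheres, and 476.4 and 495.8 FPKM in KO and 460.8 and 461.0 FPKM in WT cortex. Its KO values were higher in both tissues without passing (log2 fold change 0.22, limma adjusted p = 0.54, and 0.08, limma adjusted p = 0.416).

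The ratio of Map1b to Map2 within a library was higher in both KO than in both WT libraries of each tissue, a description with no test. It was 2.13 and 2.02 in KO and 1.10 and 1.76 in WT neurospheres, and 1.31 and 1.48 in KO and 1.04 in each WT cortex library. The ratio of Mapt to Map2 overlapped between KO and WT in both tissues.

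Stmn2 encodes a stathmin of growth cones that sequesters tubulin. It measured 352.8 and 335.8 FPKM in KO and 426.4 and 312.7 FPKM in WT neurospheres, with overlapping groups (log2 fold change −0.09, limma adjusted p = 0.862, and 0.08 after rescaling). In cortex it measured 742.9 and 772.3 FPKM in KO, against 776.3 and 811.4 FPKM in WT. The cortex difference of −0.07 on the log2 scale did not pass (limma adjusted p = 0.505), and after rescaling it was 0.05.

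**Figure D3:**
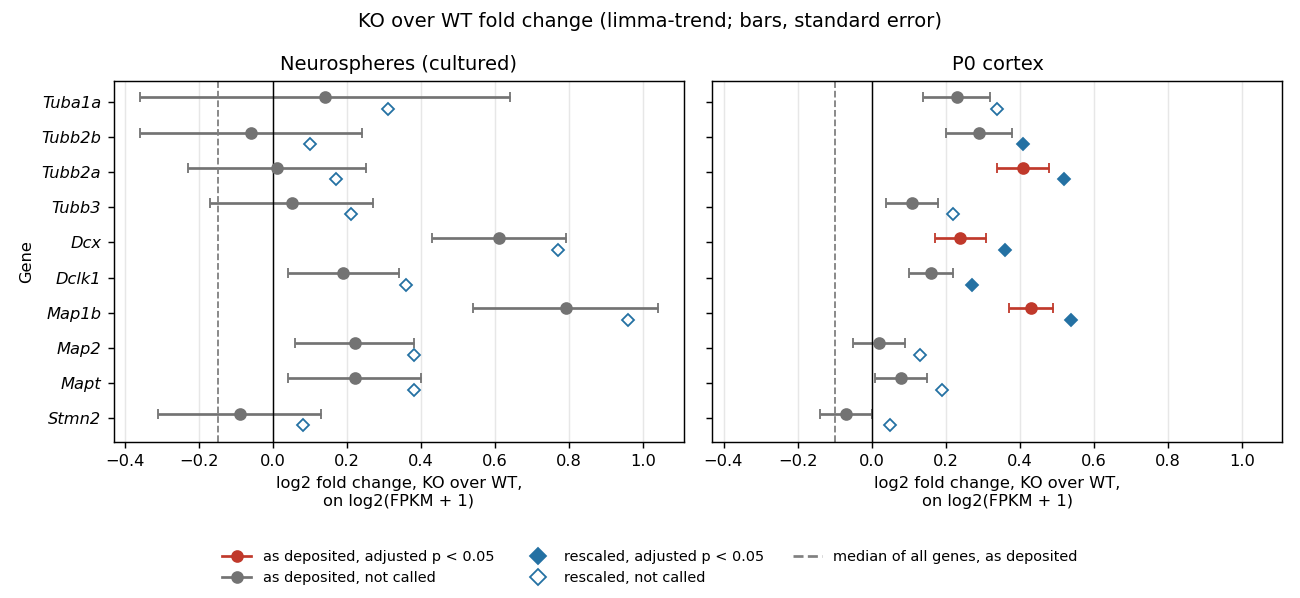
Log2 fold change of KO over WT on log2(FPKM + 1) with its standard error for the 10 genes in neurospheres (left) and cortex (right). Red circles passed adjusted p 0.05 as deposited, diamonds give the values after rescaling, filled where they passed, and the dashed line is the median of all genes as deposited (−0.15 and −0.10). Tubb2a, Dcx and Map1b passed in cortex, and no gene passed in neurospheres, where Dcx and Map1b lie farthest to the right.

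The calls in cortex depended on how the spread was estimated. With 1 spread estimated over all 8 libraries, 0 of the 10 were called in cortex (limma adjusted p = 0.389 for Tubb2a and Map1b and 0.445 for Dcx). Few genes of any kind were called there with that spread, 1 higher and 5 lower of 10947. In neurospheres Dcx and Map1b were called higher (limma adjusted p = 0.0209 and 0.0326), where 330 of the 10947 genes were called higher and 1340 lower. The authors' deposited table called 7 of the 10 higher in KO cortex, against 6.36% of the genes with an adjusted p in that table, and 2 in KO neurospheres, against 3.5%. Beside the limma calls these were Tubb2b (log2 fold change 0.38), Tuba1a (0.34), Dclk1 (0.26) and Tubb3 (0.21) in cortex, where that table gave 0.53 for Tubb2a, 0.52 for Map1b and 0.34 for Dcx. Its values for Map2, Mapt and Stmn2 in cortex were 0.11, 0.17 and 0.04, none of them called.

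The effect of KO was also compared between tissues, as the cortex difference minus the neurosphere difference over the 10947 genes in both tables. For 0 of the 10 genes did the effects differ at the threshold (limma-trend with BH over all genes, 1.4% of which were called), and 0 had an unadjusted limma p under 0.05. The largest differences were 0.39 for Tubb2a (SE 0.26, limma adjusted p = 0.481) and −0.36 for Dcx (SE 0.18, limma adjusted p = 0.343) and Map1b (SE 0.28, limma adjusted p = 0.539). Without the WT 6 neurosphere library 3 of the 10 were called, at 0.64 for Tubb2a (limma adjusted p = 0.0226), −0.51 for Dcx (limma adjusted p = 0.0471) and −0.68 for Map1b (limma adjusted p = 0.0321). With and without WT 6, the estimated KO effect was greater in cortex for Tubb2a and in neurospheres for Dcx and Map1b.

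The order of levels was alike across groups. Tuba1a, Tubb2b and Tubb2a ranked 1, 2 and 3 among the 10 in every group, and Dclk1 ranked 10. In KO neurospheres Map1b was 4, with 428 ± 43.8 FPKM (SD, n = 2) and a range that overlapped Tubb2a and Tubb3, whereas in WT neurospheres it was 7, with 252 ± 77.5 FPKM. In WT cortex Map1b and Map2 overlapped, at 187 ± 6.60 and 179 ± 6.03 FPKM (SD, n = 2), and in KO cortex they did not, at 252 ± 2.27 and 182 ± 13.7 FPKM. In KO neurospheres Dcx and Map2 overlapped too, and in WT neurospheres Tubb2a, Tubb3 and Stmn2 overlapped in turn, as did Mapt and Map1b. In KO cortex the 1 overlap between neighbours was that of Map2 and Dcx. Together the 10 genes made up 3.37% and 3.01% of all summed FPKM in KO and 2.66% and 2.57% in WT neurospheres, and 4.9% in each KO library and 3.93% and 4.25% in WT cortex.

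Each gene was centred within its tissue and set against the mean of the other 9 over the 8 libraries, which share their tissue tables and group structure. Pearson's r was 0.84 for Tuba1a, 0.80 for Mapt, 0.76 for Dclk1, 0.72 for Map2 and 0.69 for Dcx. It was lower for Tubb2a (0.54), Map1b (0.52), Tubb3 (0.45) and Tubb2b (0.44), and −0.15 for Stmn2. The 5 genes outside the set most like the mean of the 10 were Rai2 (r = 0.980), Ina (0.979), Lincppara (0.970), Ttll1 (0.968) and Runx1t1 (0.966), among 10937 genes. Ina, which encodes the neuronal intermediate filament protein internexin alpha, averaged 119 FPKM in KO and 87.2 FPKM in WT neurospheres, and 97.7 FPKM in KO and 66.9 FPKM in WT cortex. Ina was chosen by its profile over these same libraries, so these values are a description and carry no test.

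Promoter windows are shown for the 3 genes that rose in KO cortex, from 250 bases before to 50 after the listed start in RefSeq (GRCm38.p6), 5′ to 3′ on the gene's own strand. Capitals mark TATAAA. It was searched on both strands, as were the motifs named after the sequences, once the values had been seen.
Tubb2a, chr13:34077959-34078258, minus strand: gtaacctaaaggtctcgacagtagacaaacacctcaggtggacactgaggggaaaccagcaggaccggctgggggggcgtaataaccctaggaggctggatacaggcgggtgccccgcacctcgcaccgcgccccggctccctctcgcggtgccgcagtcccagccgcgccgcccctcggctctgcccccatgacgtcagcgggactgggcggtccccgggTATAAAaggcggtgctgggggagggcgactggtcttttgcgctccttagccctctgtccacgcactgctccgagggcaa
Dcx, chrX:143933075-143933374, minus strand: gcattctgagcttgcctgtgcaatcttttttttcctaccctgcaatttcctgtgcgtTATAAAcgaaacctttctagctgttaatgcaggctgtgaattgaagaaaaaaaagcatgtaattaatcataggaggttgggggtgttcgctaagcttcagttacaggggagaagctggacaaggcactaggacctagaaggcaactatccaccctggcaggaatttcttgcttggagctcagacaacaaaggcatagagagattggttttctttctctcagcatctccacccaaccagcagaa
Map1b, chr13:99516553-99516852, minus strand: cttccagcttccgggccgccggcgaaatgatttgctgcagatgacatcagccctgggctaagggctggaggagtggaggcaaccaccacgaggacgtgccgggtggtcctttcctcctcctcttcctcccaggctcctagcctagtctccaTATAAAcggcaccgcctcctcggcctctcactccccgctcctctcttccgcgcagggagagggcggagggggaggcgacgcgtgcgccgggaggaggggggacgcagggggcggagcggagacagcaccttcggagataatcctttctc
The first base of TATAAA lay 29 bases before the listed start in Tubb2a, 99 in Map1b and 193 in Dcx, and 98 before a second listed start of Dcx. It overlapped no CANNTG match in these windows, and 13.6% of 32851 promoter windows in RefSeq hold it. The windows of Tuba1a, Tubb3, Dclk1 and Map2 hold none, and those of Tubb2b, Mapt and Stmn2 were not matched. The motif CANNTG, which 72.3% of windows hold, occurred 1 time in Tubb2a and in Map1b and not in Dcx. The motif GGGCGG, which 35.7% hold, occurred 2 times in each of Tubb2a and Map1b and not in Dcx. The motif CCAAT, which 37.4% hold, occurred 1 time in Dcx and in neither of the others. These matches describe the letters of the windows only.

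Other genes of the microtubule system were taken from lists by role, 164 genes in all, and 25 of 148 measured in cortex rose in KO and 17 fell, with a median log2 fold change of −0.04 beside −0.10 for all genes. The shares called over all genes were 4.8% higher and 17.7% lower. After rescaling 40 of these genes were higher and 7 lower, against 9.43% and 7.79% of all genes. With 1 spread over all 8 libraries none of them was called in cortex, where 1 of all genes was called higher and 5 lower. All 3 measured alpha tubulins besides Tuba1a rose in KO cortex. Tuba4a had 31.7 and 32.7 FPKM in KO and 18.1 and 23.6 FPKM in WT (log2 fold change 0.62, limma adjusted p = 0.00619), Tuba1b rose by 0.37 (limma adjusted p = 0.0082) and Tuba1c by 0.26 (limma adjusted p = 0.0293). Tubb4b and Tubb4a fell among 4 further beta tubulins (Tubb4b alone after rescaling), by log2 fold changes of −0.40 (limma adjusted p = 0.00349) and −0.26 (limma adjusted p = 0.0197). Tube1, an epsilon tubulin at 1.09 FPKM in KO and 1.65 FPKM in WT, fell (−0.34, limma adjusted p = 0.0441), 1 of 4 such minor tubulins, and was not called after rescaling.

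Of 18 further structural proteins 1 rose in KO cortex, Map7d1 (0.55), and 5 fell, among them Tppp3 (−0.67) and Mtus1 (−0.58), whereas after rescaling 5 rose and 2 fell. Stmn4, a neuronal stathmin, had 491.9 and 496.4 FPKM in KO and 349.8 and 375.4 FPKM in WT, and rose (0.45, limma adjusted p = 0.00343), 1 of 3 further stathmins. Among 25 end-binding and nucleation genes 4 rose, including Camsap3 and Nav2 (0.31 each), and Clip4 fell (−0.36), whereas after rescaling 8 rose and 0 fell. Of 20 severing and modifying enzymes 2 rose and 2 fell, and after rescaling 3 rose and 0 fell. Agtpbp1, which trims glutamates from tubulin tails, rose (0.43, limma adjusted p = 0.00319), while Ttl, the tubulin tyrosine ligase, and Hdac6, a tubulin deacetylase, fell (−0.31 and −0.27). Of 15 folding genes the tubulin cofactors Tbce (−0.36), Tbcc (−0.31) and Tbcb (−0.27) fell and none rose, a count of 3 lower beside 17.7% of all genes, and after rescaling 1 gene rose and 1 fell. The counts of these lists are descriptions and were not tested against other genes.

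Of 32 motor genes 9 rose in KO cortex and 2 fell (11 and 2 after rescaling). Kif5c, a neuronal kinesin heavy chain, had 139.6 and 141.9 FPKM in KO and 101.5 and 102.1 FPKM in WT (log2 fold change 0.46, limma adjusted p = 0.002), whereas Kif26b (−0.72) and Dync1i1, a dynein intermediate chain (−0.49), fell. Of 24 kinases and regulators 5 rose (7 after rescaling), among them Cdk5r1, the activator of Cdk5 (0.57, limma adjusted p = 0.00348), and Crmp1 (0.53, limma adjusted p = 0.00242), and Ppp1r9a fell (−0.47). Of the genes named from these lists, Tubb4b, Mtus1, Stmn4, Agtpbp1, Dync1i1, Kif5c, Cdk5r1, Crmp1 and Ppp1r9a were called without each cortex library in turn. Clip4, Hdac6, Tbcc and Tube1 lost the call without any 1 of the 4 libraries. Camsap3 lost it without KO 1, KO 2 or WT 2, and was 0.19 without WT 2 (limma adjusted p = 0.147). Nav2 lost it without KO 2 (0.21, limma adjusted p = 0.254), WT 1 or WT 2, and Tuba1c without KO 1 (0.21, limma adjusted p = 0.234), KO 2 or WT 1. Tuba1b, Tubb4a, Tbcb, Tbce and Ttl lost it without KO 1 or KO 2, Kif26b without KO 1, and Map7d1, Tppp3 and Tuba4a without KO 2.

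In neurospheres 0 of 150 such genes passed the limma test. An unadjusted limma p under 0.05 was found for 31 of the 150, beside 2288 of all 11408 genes. After rescaling 1 passed, Cdk5r1. The most highly expressed of each list there were Tuba1b (750.4 FPKM on average in KO and 639 FPKM in WT), Tubb5 (386 FPKM in KO and 461 FPKM in WT), Tubg1, Map4, Stmn1, Clip3, Atat1, Cct5, Klc1 and Crmp1. Clip3 averaged 251 FPKM in KO and 181 FPKM in WT, and Crmp1 456 FPKM in KO and 336 FPKM in WT, in each case with both KO libraries above both WT libraries. Stmn1 averaged 1784 FPKM in KO and 1806 FPKM in WT, the groups overlapping.

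**Figure D4:**
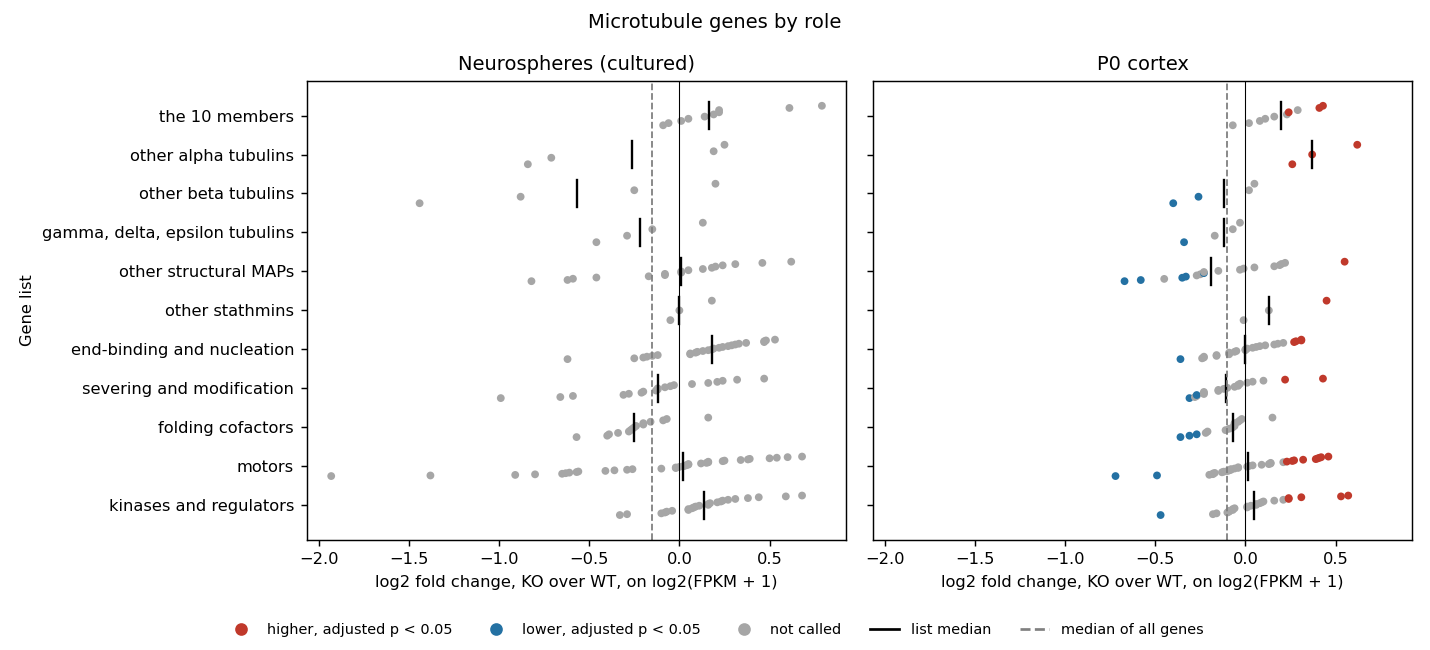
Log2 fold change of KO over WT for the 10 genes and for other microtubule genes by role, in neurospheres (left) and cortex (right), 1 point per gene, with the list median as a black bar and the median of all genes dashed. Red points passed adjusted p 0.05 as higher in KO and blue as lower; in cortex 25 of the 148 other genes are red and 17 blue (40 and 7 after rescaling, not drawn), and in neurospheres no point is coloured.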

How the data were processed

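The 10 genes and the lists of other genes were chosen with earlier results of these data known. The tools named per the submitters' processing notes are Bowtie, Cufflinks, DESeq2, featureCounts, STAR and Trim Galore, and the genome build is mm9; tool versions are not given there. FPKM per library were deposited by the authors for each tissue, with confidence bounds. The tables were restricted on the WT libraries (lowest WT value 0.999 FPKM in neurospheres and 1.0 FPKM in cortex), so a gene silent in WT is not covered. The authors also deposited, per tissue, a signal column (the mean normalized count), a log2 fold change with its standard error, and a p-value with its adjusted value. These appear as the authors' values. Their gene ontology tables were not used here. No source used here says whether counting used strand. Values of Dclk1 and Map2, which share their loci with genes on the opposite strand, are therefore uncertain. Tuba1a overlaps Gm49450 on its own strand, which strand cannot separate, so its value is uncertain in this way too.

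Rows with a calendar date or no symbol (20 in neurospheres, 21 in cortex) were removed, and repeated symbols (20 and 29) were reduced to 1 row, which left 11496 and 12056 genes. After a filter at a mean of 1 FPKM and with a pseudocount of 1, each tissue was fitted with limma-trend (limma 3.58.1, R 4.3.3; two-sided, BH over all genes). A fold change on this scale understates the change of low genes. Tests were checked on simulated data. Replicates are read as separate brains. Alternatives were a pseudocount of 0.1, no filter, a filter of 5 FPKM, median-ratio rescaling, quantile normalization, a spread over all 8 libraries, a replicate block, and leaving out each library.

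From each list of other microtubule genes, the text names up to 3 with the largest log2 fold change among those called in a tissue, or the most highly expressed where none was called. It also names 5 genes most like the mean of the 10. Tables were handled in Python 3.11.15 with pandas 2.3.3, and figures drawn with matplotlib 3.10.9. Library totals are not given in the files used here.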

Additional observations from a re-analysis of the deposited data

Results flagged for a closer look

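The effect of KO on Tuba4a, an alpha tubulin gene at a low level, differed between the tissues by 1.33 on the log2 scale, cortex minus neurospheres (SE 0.22, limma-trend on all 8 libraries, adjusted p = 0.03). It had 31.7 and 32.7 FPKM in KO cortex, against 18.1 and 23.6 FPKM in WT cortex, and 5.24 and 4.26 FPKM in KO neurospheres, against 9.02 and 7.79 FPKM in WT neurospheres. Both KO libraries were thus higher in cortex and lower in neurospheres, where the log2 fold change of −0.71 did not pass on its own (limma adjusted p = 0.14). The adjusted limma p of the difference ranged from 0.0213 to 0.198 over the alternatives. It missed the threshold without KO 1 (0.198), KO 2 (0.15), WT 1 (0.149) or WT 2 (0.0883) of cortex, without WT 5 of neurospheres (0.062) and with the replicate block (0.0717).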

How the results depend on the processing

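Of the 10 genes, those called in cortex kept their direction under every alternative run. For these genes both KO values lay above both WT values, so only rescaling and quantile normalization could have turned it. The genes called numbered 131 in neurospheres, and became 65 with a pseudocount of 0.1, 1670 with 1 spread over all 8 libraries, and 0 to 671 leaving out 1 library (0 without WT 5 or WT 6). They numbered 2699 in cortex, and became 6 with the spread over 8 libraries and 820 to 1895 leaving out 1 library. Of the 10, the number higher in KO cortex was 3, and became 5 with rescaling, 0 with the spread over 8 libraries and 1 to 4 leaving out 1 library; in neurospheres it was 0, and 2 with that spread. Other microtubule genes called became 1 (rescaling), 6 (quantile), 22 (spread over 8) and 0 to 7 (leaving out 1 library) in neurospheres, and 0 (spread over 8) and 10 to 33 (leaving out 1 library) in cortex. Genes of the 10 whose KO effect differed between tissues numbered 0 in every alternative that kept all 8 libraries. Without WT 6 of neurospheres the differences of Tubb2a, Dcx and Map1b were larger in size, as given above.

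Signs turned among values that had not passed. In neurospheres rescaling gave log2 fold changes of 0.10 for Tubb2b, 0.08 for Stmn2, 0.08 for Map4 and 0.01 for Tubg1. Quantile normalization gave 0.06, 0.14, 0.05 and, for Cct5, 0.04. It sets Tuba1a, the top gene of every library, and Tubb2b in cortex to 0 by construction. Leaving out a neurosphere library gave −0.15 to 0.24 for Tubb3, −0.23 to 0.26 for Tubb2a, −0.25 to 0.13 for Tubb2b, −0.02 to 0.30 for Tuba1a and −0.31 to 0.14 for Stmn2, and −0.02 for Tubb2a without KO 7. In cortex Map2 ran from −0.06 (without KO 1) through −0.02 (without WT 1) to 0.09, and Stmn2 was 0.05 after rescaling. The differences between tissues under quantile normalization were −0.11 for Tubb3, −0.06 for Tubb2b and −0.23 for Stmn2, and −0.03 for Stmn2 with rescaling. Leaving out 1 library gave −0.14 to 0.26 for Tubb3, −0.07 to 0.24 for Tuba1a (−0.01 without KO 8), −0.12 to 0.05 for Dclk1 (0.03 without KO 7), −0.21 to 0.24 for Stmn2 (−0.01 without KO 2 or WT 1 of cortex and −0.02 without KO 8) and −0.23 to 0.03 for Hdac3. The cause was not tested.

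The replicate block in cortex called 2527 genes and, of the 10, Tubb2a and Map1b but not Dcx (limma adjusted p = 0.0512). Over 11988 genes, the replicate 2 minus replicate 1 differences of KO and WT cortex correlated at r = −0.096. With a single such difference per genotype, this r cannot decide whether samples sharing a number were paired. The neurosphere libraries share no replicate numbers, so no paired analysis was possible there. Precision is limited by 2 libraries per group, by read sharing and by the unknown library totals. Tubb2a and Tubb2b share sequence with each other, and Tuba1a with other genes such as Tuba1c.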
